A study of Rattus norvegicus with 6 samples.

Results

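The cells described here are macrophages of the rat hippocampus that carried many transcripts of interferon-stimulated genes. They were chosen by their own measured counts, in steps. A cell barcode first needed 1000 or more unique molecular identifiers (UMIs), with a mitochondrial share of no more than 20%, and 46952 of 58078 barcodes passed. The macrophage gate then asked for at least 2 UMIs of Clec7a, a receptor for fungal glucans that phagocytes make, and at least 5 UMIs of Lyz2 (lysozyme) per 1000. It allowed at most 2 UMIs of the microglial genes P2ry12 and Tmem119 together. It also left out barcodes with 4 or more UMIs of Cd74 per 1000, with 5 or more of the neutrophil genes S100a8 and S100a9 per 1000, or with more than 2 of the cycling genes Mki67, Top2a and Cenpf. This gate held 3817 barcodes, called Clec7a Lyz2 macrophages here. The last step asked for at least 1 UMI of Ifit3, Irf7 and Mx1 together per 1000 UMIs, and 301 barcodes met it, called interferon-high macrophages. They were 0.641% of the 46952 barcodes (exact 95% interval 0.571 to 0.717%) and 7.89% of the Clec7a Lyz2 macrophages (7.05 to 8.79%). The 3516 macrophages under the last threshold serve for comparison.

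The hippocampi came from male rats, 3 irradiated with 20 Gy over the whole brain 2 months before dissection and 3 controls, and were dissociated, freed of red and dead cells, and run on the Chromium 3′ v3 platform. Strain and age are not stated in the labels, nor whether the controls had a sham procedure. No sorting step is named. The matrix joins 6 libraries, numbered by the barcode ending, and 0 of them could be tied to a labelled sample, so irradiated and control rats are not compared. Values are given per library with no condition, the libraries are not replicates, and no test was made; every interval covers counting error only.

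Interferons are secreted signals of antiviral defence. Type I interferons bind the receptor chains Ifnar1 and Ifnar2, interferon gamma binds Ifngr1 and Ifngr2, and kinases of the JAK family then activate STAT proteins. With Irf9, the STATs of the type I pathway bind the interferon-stimulated response element in promoters, and effector proteins that block viral RNA, translation or entry follow. Irf7 is a factor that amplifies type I interferon production, Ifit3 belongs to a family that binds viral RNA, and Mx1 is a GTPase that traps viral particles. In brains of mice, microglia and macrophages with such a profile are known from ageing, injury and infection.

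The interferon-high macrophages lay almost wholly in 3 libraries. Libraries 1 to 6 held 0, 0, 2, 38, 122 and 139 of them, among 1, 0, 4, 551, 1524 and 1737 Clec7a Lyz2 macrophages. The 0 in library 1 allows up to 0.0524% of its 5720 retained barcodes, and the 0 in library 2 up to 0.0337% of 8911. Libraries 1 to 3 thus held hardly any cell of the gate, interferon-high or not. Within the gate, the interferon-high share was 6.90% in library 4 (4.93 to 9.34%), 8.01% in library 5 (6.69 to 9.48%) and 8.0% in library 6 (6.77 to 9.38%). These 3 intervals overlap. Interferon-high macrophages and those below the threshold were of like depth, with medians of 5906 and 6021.5 UMIs, 2083 and 2102 genes, and 7.49 and 8.10% mitochondrial UMIs. Across the matrix, 410 barcode sequences occurred in more than 1 library; 7 interferon-high macrophages and 58 below the threshold carried such a sequence.

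**Figure D1:**
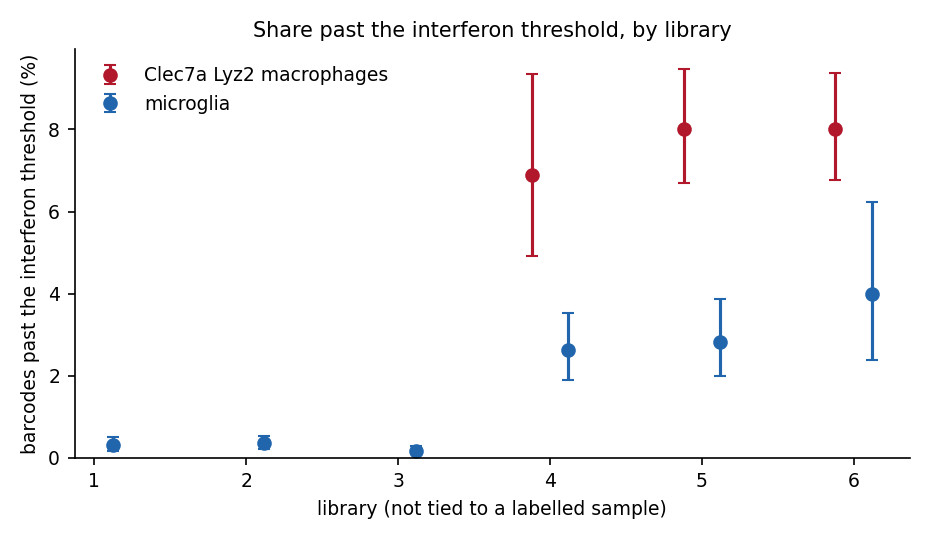
Percent of barcodes past the interferon threshold among Clec7a Lyz2 macrophages (red) and microglia (blue) in each library, with exact 95% binomial intervals; libraries with under 50 macrophages have no red point. The red points lie at 6.90, 8.01 and 8.0% in libraries 4, 5 and 6, and the blue ones between 0.172 and 3.98%.

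The 3 genes of the threshold were mostly found together. Of the 301 interferon-high macrophages, 171 held UMIs of all 3 genes, 112 of 2 and 18 of 1. Ifit3 was found in 206 of them (68.4%), Irf7 in 268 (89.0%) and Mx1 in 281 (93.4%), against 9.67, 30.4 and 37.5% of macrophages below the threshold. These values chose the cells and are a description. The summed level of the 3 genes had a median of 10 UMIs, or 1.5 per 1000, and a highest value of 10.9 per 1000. The boundary was crowded: 86 interferon-high macrophages lay between 1 and 1.2 per 1000, and 101 barcodes lay just outside it, from 0.8 up to 1. Only 3 cells passed with under 3 UMIs. At the other end 1590 macrophages had no UMI of the 3 genes.

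Promoter sequences of 5 genes are printed because the interferon-stimulated response element has a known core, the letters GAAA, any 2 bases, and GAAA again, and these promoters hold it. They are RefSeq windows of GRCr8, from 250 bases before to 50 bases after the start of the gene, given 5′ to 3′ along the gene, with this core, or its reverse complement, in capitals. Ifit3 (chr1:241527076-241527375, plus strand) is a gene of the threshold. Ifitm3 (chr1:205541709-205542008, minus strand) encodes a membrane protein that blocks viral fusion, and Oas1a (chr12:41330216-41330515, plus strand) an enzyme that makes the signal for RNA decay. Samd9 (chr4:32138909-32139208, minus strand) is an antiviral factor that restrains translation, and Cxcl10 (chr14:15988816-15989115, plus strand) encodes a chemokine that attracts T cells.
Ifit3: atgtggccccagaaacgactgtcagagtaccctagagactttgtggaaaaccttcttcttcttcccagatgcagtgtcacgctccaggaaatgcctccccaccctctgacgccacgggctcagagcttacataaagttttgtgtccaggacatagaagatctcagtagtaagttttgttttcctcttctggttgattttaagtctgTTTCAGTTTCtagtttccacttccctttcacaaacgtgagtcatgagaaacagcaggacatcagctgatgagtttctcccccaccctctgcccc
Ifitm3: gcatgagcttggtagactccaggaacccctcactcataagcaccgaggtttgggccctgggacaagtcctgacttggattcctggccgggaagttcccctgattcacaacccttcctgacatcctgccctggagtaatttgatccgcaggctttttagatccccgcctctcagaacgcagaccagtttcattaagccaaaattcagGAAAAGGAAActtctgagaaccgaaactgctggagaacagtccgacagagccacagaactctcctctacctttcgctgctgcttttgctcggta
Oas1a: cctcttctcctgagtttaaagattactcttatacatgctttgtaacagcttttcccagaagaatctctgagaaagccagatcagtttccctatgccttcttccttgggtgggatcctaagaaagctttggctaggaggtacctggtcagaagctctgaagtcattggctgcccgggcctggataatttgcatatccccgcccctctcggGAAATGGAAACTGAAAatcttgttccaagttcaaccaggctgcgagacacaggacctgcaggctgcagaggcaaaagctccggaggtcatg
Samd9: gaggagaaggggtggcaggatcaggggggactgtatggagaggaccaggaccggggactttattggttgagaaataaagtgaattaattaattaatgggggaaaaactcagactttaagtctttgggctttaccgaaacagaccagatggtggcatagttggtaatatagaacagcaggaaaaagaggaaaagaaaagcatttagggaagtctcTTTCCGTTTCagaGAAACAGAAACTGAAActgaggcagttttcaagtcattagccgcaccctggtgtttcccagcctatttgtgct
Cxcl10: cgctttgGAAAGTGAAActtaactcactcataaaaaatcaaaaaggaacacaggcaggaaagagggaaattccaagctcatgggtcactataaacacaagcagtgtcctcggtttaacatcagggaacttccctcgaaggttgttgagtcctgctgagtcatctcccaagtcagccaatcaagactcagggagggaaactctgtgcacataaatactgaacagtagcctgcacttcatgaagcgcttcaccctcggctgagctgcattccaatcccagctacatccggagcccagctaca

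The matches begin 44 bases before the start in Ifit3 and in Ifitm3, at 41 and 35 bases before it in Oas1a (overlapping), at 36, 23 and 17 bases before it in Samd9 (the last pair overlapping), and 243 bases before it in Cxcl10. Searched on both strands, the core occurred in 4.12% of 27457 RefSeq genes with a window and in 3.15% of the 8158 with a window among the genes compared below. It occurred in 21 of the 48 genes with a window that were at least 2-fold higher in interferon-high macrophages (43.8%), and in 25 of 39 on the effector list (64.1%). Of the 3 genes of the threshold 2 held it, and Mx1 did not. The windows of Slfn4 and Herc6, both among the higher genes, held no match either. A second motif, TTCNNNGAA, the spacing at which STAT dimers bind, occurred in 9.39% of all windows, 7.02% of the compared genes, 9 of the 48 higher genes (18.8%) and 8 of the 39 effectors (20.5%). A match is only a run of letters in the window.

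Across the transcriptome, few genes other than those of the rule separated interferon-high macrophages from those below the threshold. On the largest interferon list, the antiviral effectors, 26 of 51 genes compared were at least 2-fold higher, against 76 of all 11118. UMIs were summed over each class and scaled to CPM, counts scaled to the same total in each class; the log2 ratio had 10 CPM added to both sides, which understates changes of low genes. Among 11118 genes outside the rule with at least 50 UMIs over both classes, 76 (0.684%) were at least 2-fold higher in interferon-high macrophages and 2 (0.018%) at least 2-fold lower. The median log2 ratio of all these genes was -0.04. Of the 76, 74 had a positive ratio in each of libraries 4, 5 and 6, and 66 were at least 2-fold higher within both library 5 and library 6. Library 4, with 38 interferon-high macrophages, is the thinnest of the 3. Genes of the same cells are not independent of the 3 that chose them, so these counts describe the cells and test nothing. Where the library values of a gene are said below not to overlap, no share over all genes is set beside it. Such a statement describes that gene only. The genes so described were named largely for the size of their pooled ratios, so separate library values are no further result.

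The antiviral effectors gave the most genes past 2-fold. Of 64 listed genes 56 were in the matrix and 51 had enough UMIs; 26 of these were at least 2-fold higher, none was at least 2-fold lower, and the median log2 ratio was 1.11. Within libraries the median was 0.97 in library 4, 1.12 in library 5 and 1.09 in library 6. Ifitm2 had a log2 ratio of -0.06 and Ifitm1 of -0.03.

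Slfn4, a member of the Schlafen family of myeloid cells in mice, had 3167, 4397 and 2362 CPM in interferon-high macrophages of libraries 4, 5 and 6, against 517, 753 and 377 CPM in macrophages below the threshold. The lowest interferon-high value was above the highest of the others, and the pooled log2 ratio was 2.56. Its symbol belongs to more than 1 row of the matrix and to a family of close copies, so its counting is uncertain. Ifit2, whose protein binds viral RNA like that of Ifit3, had 1276, 862 and 832 CPM against 292, 254 and 146 CPM below the threshold. Its log2 ratio was 2.09, with 177 of its 1842 UMIs in 1 cell and a ratio of 1.95 without it.

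Ifitm3 stood apart from the other Ifitm genes. It had 418, 481 and 529 CPM in interferon-high macrophages of libraries 4, 5 and 6, against 87.7, 70.7 and 95.4 CPM below the threshold, a log2 ratio of 2.41. Ifitm1 stood at 664 CPM in interferon-high macrophages and 681 CPM below the threshold, and Ifitm2 at 217 and 226 CPM. Ly6e, a surface protein induced by interferon, had 485, 763 and 780 CPM against 114, 132 and 131 CPM, a log2 ratio of 2.43. It was found in 84.1% of interferon-high macrophages and in 42.7% of those below the threshold.

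Among enzymes and GTPases of the response, Mx2, the relative of Mx1, had 88.9, 78.9 and 104 CPM against 13.6, 11.0 and 9.14 CPM below the threshold (log2 ratio 2.35). Oas1a had 111, 123 and 135 CPM against 34.1, 20.6 and 26.6 CPM (1.96), and Samd9 had 311, 443 and 249 CPM against 105, 99.7 and 65.9 CPM (1.84). The groups did not overlap for any of these genes, but they are among those of the effector list with large ratios and were named for that. Oasl (1.78), Ifi44l (1.83), Ifi27l2b (1.84), Xaf1 (1.79) and Isg20, an RNA-degrading exonuclease (1.76), had log2 ratios in the same range. Bst2, the tether that holds budding virions, stood at 864 CPM in interferon-high macrophages and 587 CPM below the threshold, a log2 ratio of 0.55, and was found in 93.7 and 88.8% of barcodes.

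**Figure D2:**
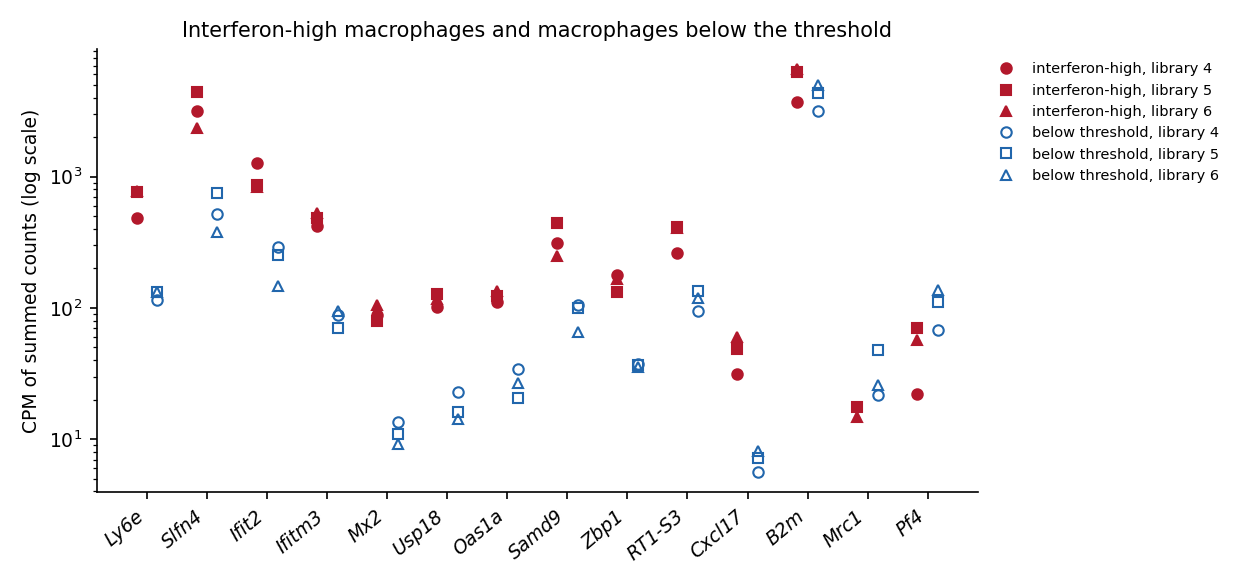
CPM (log axis) of 14 genes in interferon-high macrophages (filled red) and macrophages below the threshold (open blue) of libraries 4, 5 and 6, 1 point per library. For Slfn4, Ly6e and Mx2 every red point lies above every blue one; Pf4 and Mrc1 lie lower in red within each library, and Mrc1 in interferon-high macrophages of library 4 is at 0 and cannot be drawn on this axis.

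The machinery of the ubiquitin-like protein Isg15 had the highest median of all lists, 1.81, over only 4 genes compared. Usp18, which strips Isg15 from proteins and restrains the type I receptor, had 102, 129 and 117 CPM against 22.8, 16.0 and 14.3 CPM below the threshold (log2 ratio 2.31). The ligase Herc6 had 129, 146 and 88.0 CPM against 30.8, 19.8 and 12.1 CPM (2.16), and the conjugating enzyme Ube2l6 had a log2 ratio of 1.45. Uba7, also of this list, was under 2-fold at 0.53. Isg15 itself was hardly counted: 6 UMIs in interferon-high macrophages and 7 below the threshold, so no ratio is given. Among the guanylate-binding and immunity-related GTPases, 3 of 6 were at least 2-fold higher (Gbp2 at 1.64, Gvin1 at 1.04 and Gbp5 at 1.02), with a list median of 0.94. Without library 5, Gvin1 stood at 0.79 and Gbp5 at 0.95, while Gbp2 stayed past 2-fold at 1.44. Oas2, an antiviral synthetase gene past 2-fold in the pooled comparison, was also under 2-fold without library 5, at 0.94.

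Transcripts of the interferons themselves were near 0. Ifnb1, the gene of interferon beta, gave 18 UMIs in 6 of 301 interferon-high macrophages, 8.68 CPM (exact Poisson interval 5.15 to 13.7), against 18 UMIs in 11 of 3516 macrophages below the threshold, 0.757 CPM (0.448 to 1.2). Of the 18 UMIs in interferon-high macrophages, 15 came from library 6 and 3 from library 5, and 1 cell held 7. The astrocyte-marker barcodes gave 0 UMIs of Ifnb1 in 6497 barcodes at a median depth of 6322 UMIs. The microglia defined below gave 12 UMIs in 148 barcodes past the threshold (10.3 CPM) and 100 UMIs in 22279 barcodes under it (0.744 CPM). The other listed ligands in the matrix (Ifna1, Ifna4, Ifne, Ifnk, Ifng, Ifnl1 and Ifnl3) had 0 UMIs in interferon-high macrophages, which allows up to 1.45 CPM of each. Ifng, the gene of interferon gamma, was counted mainly in barcodes with Cd3 transcripts, at 176 UMIs in 620 barcodes (49.0 CPM).

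Receptors and signal transducers were not set apart. None of the 5 receptor genes compared was at least 2-fold higher or lower, with a median log2 ratio of 0.05; Ifnar1 had 222 CPM in interferon-high macrophages and 250 CPM below the threshold, and Ifnar2 had 130 and 123 CPM. Of the JAK and STAT genes Stat2 had the highest log2 ratio, 0.51, and had 62.3, 101 and 73.3 CPM in interferon-high macrophages of libraries 4, 5 and 6, against 69.1, 58.0 and 47.8 CPM. The groups overlapped for Stat2. Jak1 (-0.07), Jak2 (0.02) and Tyk2 (0.06) lay near 0. Of the other IRF factors, Irf1 had a log2 ratio of 0.32, Irf5 of 0.07 and Irf3, a factor switched on downstream of the nucleic acid sensors, of -0.19. Irf9 had 0 UMIs in interferon-high macrophages and 7 below the threshold.

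Sensors of foreign nucleic acid differed among themselves. Of 17 sensor genes, 5 were at least 2-fold higher: Zbp1, a sensor of left-handed nucleic acid (log2 ratio 1.85), Ddx58, which encodes RIG-I (1.51), Dhx58 (1.46), the nuclease Trex1 (1.41) and Ifih1, which encodes MDA5 (1.21). Zbp1 had 178, 133 and 166 CPM against 37.4, 36.5 and 35.6 CPM below the threshold. Cgas, the DNA sensor, had a log2 ratio of 0.52, and its adaptor Sting1 had 36.2 CPM in interferon-high macrophages and 52.2 CPM below the threshold (-0.43). The list median was 0.50.

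MHC class I presentation stood higher by a smaller factor, and over nearly every gene. All 11 class I genes of the list that were compared had a positive log2 ratio, as did 4603 of all 11118 genes. The list median was 0.44, and 2 of its genes were at least 2-fold higher. These were RT1-S3 (1.64) and the peptide transporter Tap1 (1.03, or 0.99 without library 5). RT1-S3, a non-classical class I gene of the rat, had 262, 417 and 406 CPM against 94.3, 134 and 119 CPM below the threshold. The RT1 genes are close copies of each other, so their separate values are uncertain. B2m, the light chain of class I, had 3718, 6204 and 6549 CPM against 3171, 4342 and 4943 CPM (log2 ratio 0.44); within each of the 3 libraries the interferon-high value was the larger, while across libraries the groups overlapped.

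The 5 subunits that form the immunoproteasome, which cuts peptides for class I, had log2 ratios from 0.39 to 0.66 with a median of 0.51. Psmb9, 1 of them, had 125, 180 and 191 CPM in interferon-high macrophages of libraries 4, 5 and 6, against 99.2, 119 and 136 CPM. The 13 constitutive proteasome subunits had a median of 0.09, and the highest was 0.18. MHC class II genes had a median of 0.16 that was 0.53 in library 4, 0.38 in library 5 and -0.36 in library 6. The Cd74 limit of the gate left out macrophages high in some of these genes. RT1-Da had 26.5 CPM in interferon-high macrophages and 2717 CPM in macrophages with high Cd74, while RT1-DMa had 1396 and 1062 CPM.

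**Figure D3:**
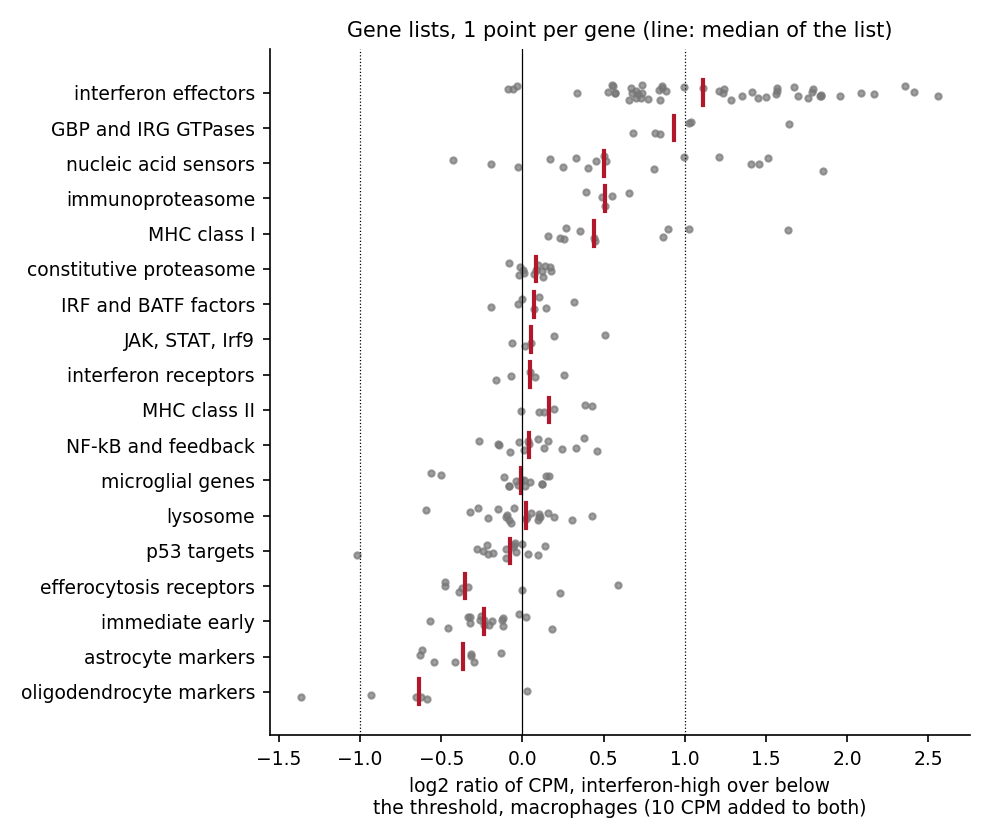
Log2 ratios of CPM, interferon-high macrophages over macrophages below the threshold, for the genes of 18 lists; grey points are genes, red bars list medians, dotted lines 2-fold. Of the lists drawn, which leave out the Isg15 machinery, the effectors lie farthest right with a median of 1.11, the immunoproteasome at 0.51 and the constitutive proteasome at 0.09, and the oligodendrocyte markers lie farthest left at -0.64.

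Chemokines of the interferon response came from few cells. Cxcl10 had 84.5, 341 and 43.1 CPM in interferon-high macrophages of libraries 4, 5 and 6, against 6.28, 16.7 and 10.4 CPM below the threshold, a log2 ratio of 2.82. It was found in 36 of 301 cells, and 11 cells with at least 10 UMIs held 253 of its 302 UMIs. Cxcl9, another ligand of the T cell receptor Cxcr3, had 133 UMIs, of which 96 lay in 1 cell of library 5, and its log2 ratio was 2.74, or 1.33 without this cell. That cell held 0 UMIs of Cxcl10. The next 3 cells for Cxcl9 held 20, 9 and 4 UMIs of it and 34, 4 and 1 of Cxcl10. Cxcl11 had 13 UMIs, all in library 5, against 0 below the threshold, where a count of 0 allows up to 0.126 CPM.

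Inflammatory chemokines and cytokines had no common direction. Of 18 such genes compared none was 2-fold higher or lower, and the median log2 ratio was 0.00. Cxcl2, a neutrophil attractant, had 783, 1009 and 2587 CPM in interferon-high macrophages of libraries 4, 5 and 6, against 841, 1224 and 3323 CPM below the threshold (-0.30). The libraries differed more than the classes for this gene. Cxcl1, its close relative, had 125, 130 and 852 CPM against 417, 280 and 954 CPM. Its pooled log2 ratio was -0.30, but within libraries 4, 5 and 6 it was -1.67, -1.05 and -0.16. Il1b had 395 CPM in interferon-high macrophages and 464 CPM below the threshold (-0.23), and Tnf had 205 and 170 CPM (0.26). The 15 NF-kB subunits and feedback genes had a median of 0.04.

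The effector level was graded and did not begin at the threshold. Macrophages were split by the summed level of Ifit3, Irf7 and Mx1 into those with 0, above 0 to 0.5, 0.5 to 1, 1 to 2, 2 to 4 and 4 or more UMIs per 1000, which gave 1590, 1548, 378, 210, 73 and 18 barcodes. The median of the other effectors was 4.99, 5.63, 8.25, 11.4, 17.2 and 23.6 UMIs per 1000 in this order. The stratum just under the threshold already stood above the first 2 strata, and the interferon-high macrophages form the upper part of a range. In the same order Slfn4 had 323, 477, 1512, 2799, 3707 and 4294 CPM. Ifit2 had 183, 191, 322, 522, 1240 and 3449 CPM. Cxcl10 had 13.3, 11.9, 7.50, 32.7, 236 and 1010 CPM, so that it stood higher in the last 2 strata, those with 73 and 18 barcodes. Pf4 had 130, 115, 99.6, 63.4, 44.3 and 47.4 CPM.

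**Figure D4:**
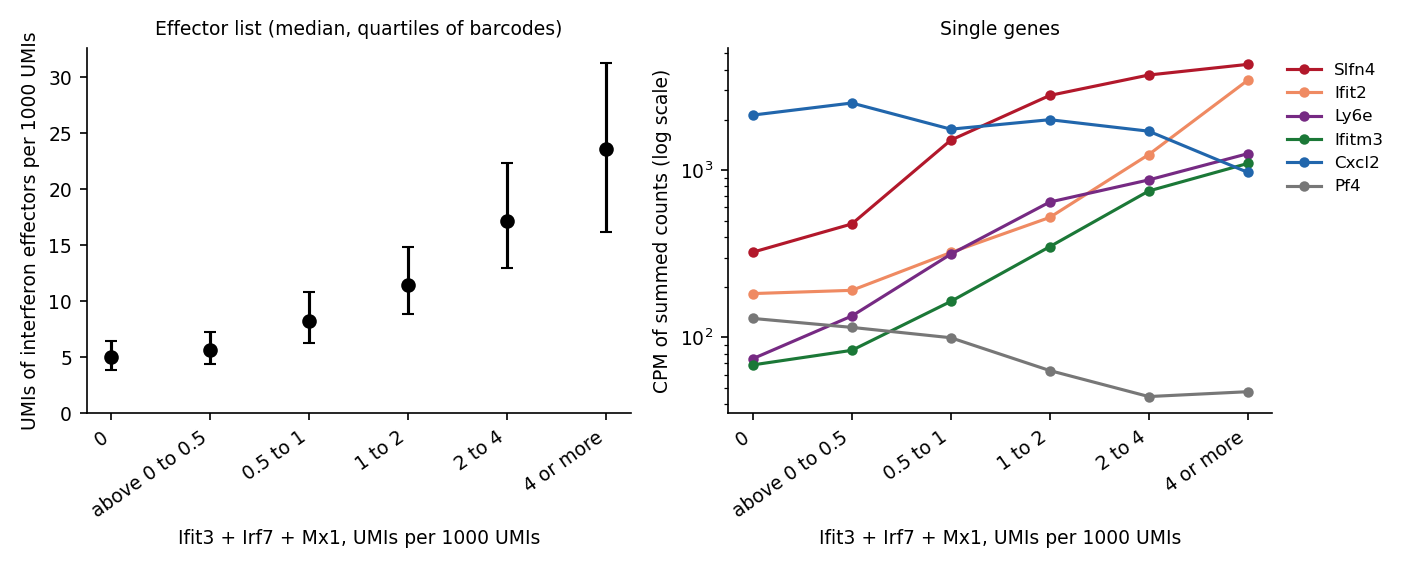
Left, UMIs of the effector list per 1000 UMIs (median and quartiles of barcodes) in macrophages split by the level of Ifit3, Irf7 and Mx1; right, CPM of 6 genes (log axis) in the same strata. The effector median is 4.99 in the first stratum and 23.6 in the last, and Pf4 is 130 CPM in the first and 47.4 CPM in the last.

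Most genes shared by macrophages and microglia had ratios near 0. The complement gene C1qa had 3580, 4770 and 4579 CPM in interferon-high macrophages of libraries 4, 5 and 6, against 3430, 4191 and 4094 CPM below the threshold, and the growth factor receptor Csf1r had 997 CPM in interferon-high macrophages and 989 CPM below the threshold. Cx3cr1, the fractalkine receptor, had 518 and 528 CPM, and Sall1, a factor of microglial identity, 4.82 and 5.21 CPM. The 15 microglial genes compared had a median log2 ratio of -0.01. The lowest of them were Trem2 (-0.56) and Slc2a5, a fructose carrier (-0.50), which was lower in each of the 3 libraries (-0.54, -0.45 and -0.51).

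Markers of border macrophages were mixed. Cd163, F13a1 and Cd209a had 0 UMIs in interferon-high macrophages. The lectin Clec10a was found in 72.8% of interferon-high macrophages, at 332 CPM, and in 76.3% of those below the threshold, at 354 CPM. The folate receptor Folr2 was found in 55.5 and 59.1%, at 172 and 192 CPM. Pf4, a platelet chemokine gene also used as a border macrophage marker, had 22.2, 70.2 and 56.9 CPM in libraries 4, 5 and 6, against 67.8, 112 and 136 CPM below the threshold, a log2 ratio of -0.94. Mrc1, the mannose receptor, had 0, 17.5 and 14.7 CPM against 21.8, 47.8 and 25.7 CPM (-0.83). In each of the 3 libraries both genes were lower in interferon-high macrophages. Ms4a7 went the other way, at 44.5, 145 and 85.4 CPM against 39.4, 72.8 and 48.8 CPM (0.75). Of the monocyte genes, Ccr2 had 1 UMI (0.482 CPM), while Ly6c had 16.9 CPM against 1.68 CPM below the threshold (1.2), from 35 UMIs. Its log2 ratio was 0.98 without the cell with the largest count, of 8 UMIs, and 0.84 with macrophages below the threshold weighted to the libraries of the interferon-high ones.

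Trem2, of the microglial list, and some genes of the damage-associated list were lower by less than 2-fold, while others of that list were higher. Trem2, a receptor for lipids, had 196, 348 and 286 CPM in interferon-high macrophages of libraries 4, 5 and 6, against 403, 454 and 444 CPM (log2 ratio -0.56). All 3 interferon-high values were below the lowest of the others. Apoe, a lipid carrier, had 4407, 2706 and 3097 CPM against 5773, 4436 and 4064 CPM (-0.50), and Ctsd, a lysosomal protease, 142, 225 and 122 CPM against 222, 275 and 238 CPM (-0.59). The list of 15 damage-associated genes had a median of -0.15 and 6 positive ratios. Itgax was the highest of them at 0.41, and stood at 0.83, 0.37 and 0.35 in libraries 4, 5 and 6. The list of 8 receptors and bridges for dead cells had a median of -0.35, and that of 21 lysosomal genes 0.02. No gene of these lists was 2-fold higher or lower. Fcgr3a, an activating receptor for antibodies, had 747, 1098 and 1282 CPM against 421, 609 and 691 CPM (0.88). The 13 cell death genes had a median of 0.23 and 12 positive ratios, with Casp8 at 0.79 and Casp4 at 0.62. Of all 11118 genes compared, 4603 had a positive ratio.

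Transcripts of other glia were fewer in interferon-high macrophages. The 6 oligodendrocyte markers had a median of -0.64 and a summed level of 185 CPM in interferon-high macrophages and 338 CPM below the threshold. At least 10 of their UMIs were found in 0 of the 301 interferon-high macrophages and in 25 of the 3516 below the threshold (0.711%). With barcodes rich in oligodendrocyte or astrocyte UMIs left out, the list median was -0.14, and with the highest doublet scores removed it was -0.16. The 8 astrocyte markers were also all lower, while 4603 of all 11118 genes compared had a positive ratio. The astrocyte markers had a median of -0.37 and sums of 2450 and 3172 CPM, at medians of 12 and 13 UMIs per barcode. At least 10 astrocyte UMIs were found in 73.4% of interferon-high macrophages and in 71.4% of those below the threshold. The astrocyte median was -0.04 with barcodes rich in glial UMIs left out and -0.15 with the highest doublet scores removed, and -0.63 without library 6. Their part in other differences was not tested.

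Gdf15, a stress cytokine and a target of p53, was 1 of the 2 genes at least 2-fold lower. It had 8.89, 7.31 and 6.90 CPM in interferon-high macrophages of libraries 4, 5 and 6, against 52.9, 16.0 and 24.1 CPM (-1.02). It rests on 15 UMIs in interferon-high macrophages and was -0.86 without library 4. The other p53 targets lay near 0, with Cdkn1a, the cell cycle inhibitor, at 39.6 CPM in interferon-high macrophages and 48.5 CPM below the threshold (-0.24), and a median of -0.08 over 16 genes. The 17 immediate early genes had a median of -0.24, which was 0.17 in library 4, -0.19 in library 5 and -0.31 in library 6. In interferon-high macrophages all 5 B cell markers had 0 UMIs, and so did the T cell genes Cd3d and Cd3g. Of 8 neutrophil markers 6 had 0 UMIs, Csf3r had 9.16 CPM against 11.7 CPM below the threshold, and Cxcr2 had 35.2 CPM, in 48 cells (15.9%), against 17.9 CPM and 9.24% of barcodes (log2 ratio 0.70).

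Outside the lists, the genes with the highest log2 ratios included several with known ties to interferon or defence. After Ly6e came Cxcl17, a mucosal chemokine (1.84), Rnf213, a large ubiquitin ligase (1.73), the histone methyltransferase Setdb2 (1.71) and the complement protease C1r (1.65). Cxcl17 had 31.1, 48.2 and 59.5 CPM in interferon-high macrophages of libraries 4, 5 and 6, against 5.62, 7.19 and 8.20 CPM below the threshold. C1r had 44.5, 55.5 and 50.0 CPM against 11.6, 11.5 and 7.80 CPM, and Cfb, another complement gene, had a log2 ratio of 1.14. The class I gene RT1-T24-1 (1.48), the coagulation factor F10 (1.32), Stat4 (1.32), Slamf9 (1.30), Klrk1, the activating receptor of killer cells (1.25), Slc28a2, a nucleoside carrier (1.24), Hsh2d (1.24) and Daxx (1.18) followed. Cxcl13, the B cell chemokine, had a log2 ratio of 1.56 but 27 of its 54 UMIs in 1 cell, and 0.92 without it. At the low end, the 10 lowest genes outside the lists had log2 ratios from -0.94 to -0.75 and none reached 2-fold. They were Aplp1, Ermn, Ephx1, Col27a1, Osgin1, Dync2i2, Cmtm5, Flrt1, Mal and Tspan4, of which Ermn and Mal are myelin genes. Aplp1 had 8.89, 27.8 and 2.59 CPM in interferon-high macrophages of libraries 4, 5 and 6, against 15.5, 74.7 and 7.88 CPM below the threshold, from 24 UMIs in the interferon-high class.

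Microglia were split by the same 3 genes to see how far the profile is shared. Microglia here are barcodes with at least 3 UMIs of P2ry12 and Tmem119 together and under 2 of Clec7a. They also had to meet the Cd74, S100a8 and S100a9, and cycling limits of the macrophage gate, so other microglia are not covered. Of these 22427 barcodes, 148 were past 1 per 1000 (0.660%), and libraries 1 to 6 held 14, 24, 13, 42, 37 and 18 of them. These were 0.301, 0.350, 0.172, 2.63, 2.81 and 3.98% of the microglia of each library. With each barcode thinned to 1000 UMIs, at least 1 UMI of the 3 genes remained in 20.5% of Clec7a Lyz2 macrophages (19.2 to 21.8%) and in 3.99% of microglia (3.74 to 4.26%). In library 4 these shares were 22.9% of macrophages and 10.5% of microglia, in library 5 they were 20.3 and 9.05%, and in library 6 they were 19.7 and 10.8%. The macrophage share was the larger within each of these libraries.

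In interferon-high microglia, set against microglia below the threshold weighted to the same libraries, 130 of the 11118 genes (1.17%) were at least 2-fold higher and 55 (0.495%) at least 2-fold lower. Of the 76 genes higher in interferon-high macrophages, 68 were among the 130, which is 89.5% of the 76 and 52.3% of the 130, and all 76 had a positive ratio. The same 3 genes chose both classes, so this overlap is a description. The effector list had a median log2 ratio of 1.11 in macrophages and 1.49 in microglia.

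Single genes differed in size between the cell classes. Slfn4 had a log2 ratio of 2.56 in macrophages and 4.17 in microglia, where macrophages below the threshold already had 522 CPM and microglia below it 147 CPM. Bst2 had 0.55 in macrophages and 1.72 in microglia, with 587 CPM in macrophages below the threshold and 131 CPM in microglia below it. Cxcl10 had 2.82 in macrophages and 5.64 in microglia, at 146 CPM in interferon-high macrophages and 1795 CPM in interferon-high microglia. The microglial Cxcl10 value also came from few cells, with UMIs in 37 of 148 interferon-high microglia. Of these 2083 UMIs, 413 lay in 1 barcode and 1119 came from library 2, which held no Clec7a Lyz2 macrophages. Ccl5, a T cell attractant, had 0.70 in macrophages and -0.96 in microglia. The microglial ratio rests on 16 UMIs of Ccl5 in interferon-high microglia, at 13.8 CPM against 36.2 CPM in the weighted microglia below the threshold. The macrophage ratio was -0.75 in library 4, -0.07 in library 5 and 1.13 in library 6, and 36 of its 104 UMIs in interferon-high macrophages lay in 1 cell. Whether the cell classes differ in these ratios was not tested.

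**Figure D5:**
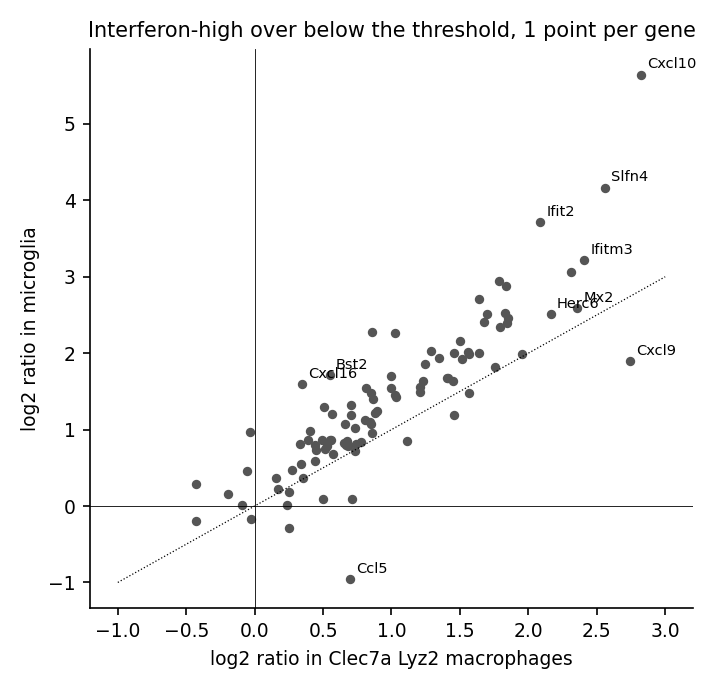
Log2 ratio of interferon-high cells over cells below the threshold for each gene of the interferon lists, in Clec7a Lyz2 macrophages (horizontal) and in microglia (vertical); the dotted line marks equal ratios. Most points lie above the line, Cxcl10 highest at 2.82 and 5.64, and Ccl5 lies below it at 0.70 and -0.96.

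The threshold was also passed in other cells of the suspension. It was met by 23 of 285 macrophages with high Cd74 (8.07%, 5.18 to 11.9%), by 18 of 620 barcodes with Cd3 transcripts (2.90%), by 11 of 6497 astrocyte-marker barcodes (0.169%) and by 80 of 127 neutrophil-marker barcodes (63.0%), the last at a median of 1408 UMIs. Thinned to 1000 UMIs, at least 1 UMI of the 3 genes was found in 28.8, 12.7, 1.59 and 70.9% of these classes in the same order. Astrocytes, which are not macrophages, had the lowest share. The Clec7a Lyz2 macrophages, at 20.5%, lay above it and below the neutrophil-marker barcodes.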

How the data were processed

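UMI counts of single cells were analysed as deposited: 1 matrix of whole-number counts for 30452 genes and 58078 barcodes, written by Cell Ranger 7.0.0, per the file headers. The submitters' processing notes name the mouse build mm10, while the gene identifiers are those of rat Ensembl; strand and intron settings: not given in the sources used here. Nothing ties the 6 libraries to labelled samples, so irradiated and control rats were not compared and no test was run. Cells were chosen by the stated thresholds, with no clustering, no removal of free RNA and no removal of doublets, which was an alternative. Counts were summed over each class and scaled to CPM; ratios had 10 CPM added and needed 50 UMIs over both classes, and called means 2-fold. Intervals are exact 95% (Poisson for CPM, Clopper-Pearson for shares), a count of 0 allows 3 counts, and all cover counting error only. The members of the class and the gene lists were chosen with earlier results of these data known. Any gene of the lists could be named; outside them the text names the 15 highest and 10 lowest log2 ratios of the same sign in libraries 5 and 6. The cells shown for Cxcl9 were picked after their values were seen. Promoters came from RefSeq GRCr8 by symbol; 8158 of 11118 compared genes matched. Python 3.11.15, NumPy 2.4.6, SciPy 1.17.1 and pandas 2.3.3 were used, and the ratio code was tested on simulated data. Some genes are not reported here.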

Additional observations from a re-analysis of the deposited data

How the results depend on the processing

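The number of interferon-high macrophages depended on the threshold. At 2 UMIs per 1000 there were 91, 2.384% of Clec7a Lyz2 macrophages, with 139 genes higher, 28 lower and an effector median of 1.409. With barcodes thinned to 1000 UMIs, 781 (20.46%) kept at least 1 UMI of the 3 genes. Adding 1 CPM in place of 10 gave 120 genes higher, 254 lower and an effector median of 1.424. That median was 0.9386 with no minimum count and 1.229 at a mitochondrial limit of 10%. The genes 2-fold lower were 1 with the highest doublet scores removed, 1 with libraries 5 and 6 weighted equally, and 0 with barcodes rich in glial UMIs left out, an alternative chosen after seeing the data. Leaving out each library in turn gave shares of 7.788 to 8.053%, 71 to 86 genes higher, 1 to 18 lower (1 without library 4, 18 without library 6), and effector medians of 1.115 to 1.198. Of 56 named genes called higher, 50 stayed past 2-fold under every alternative, and the others were Cxcl13, Ly6c, Gbp5, Oas2, Gvin1 and Tap1; of 1204 gene values, 19 lost the call, 9 gained it and 0 called ratios changed sign. Also chosen after seeing the data were the reference weighted to the libraries, the removal of shared barcode sequences, and the removal of the top cell per gene. Gdf15 rests on few UMIs, and depth limits low genes such as Ifnb1. No paired analysis was possible because the libraries carry no replicate number and no test was run.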
